A study of Mus musculus with 14 samples.

Results

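Wild-type follicular B cells from the spleens of C57BL/6 mice were compared after 27h and after 6h of culture with the cytokine BAFF. The 4 libraries compared, 2 at each time, were chosen by their titles from 14 in the series, and 12630 of the 39179 gene IDs in the count tables had enough counts to be tested. The series asks how the NF-kB subunits RelB and c-Rel act in B cell survival, and the 27h time was taken in wild type alone. At both times the cells had been isolated with a marginal zone and follicular B cell kit. BAFF was given at 50 ng/ml, in RPMI-1640 medium that also held L-glut, Pen/Strep, HEPES and Bme. The other 10 libraries are 2 of wild-type cells at 0h, whose levels are given below as a description, and 8 of knockout cells at 0h and 6h. The knockouts are of c-Rel (cko) and of RelB and c-Rel (double knockout, dbko). All 10 enter the choice of genes tested, the scaling of library sizes and the estimate of the spread. Cells cultured without BAFF were not analysed here, so time in culture and time with BAFF cannot be told apart. The labels do not say that the 2 libraries of a time came from separate mice. The p-values rest on the spread between the 2 libraries of a group, taken over the 7 groups of the series, and that spread may be technical.

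BAFF is a cytokine of the TNF family that keeps mature B cells alive. Its main receptor, BAFF-R (Tnfrsf13c), releases the kinase NIK (Map3k14) from constant destruction by TRAF and cIAP proteins, and NIK then has the p100 protein of Nfkb2 cut to p52, which acts together with RelB. A second, faster branch frees dimers of RelA, c-Rel (Rel) and p50 (from Nfkb1) from their IkB inhibitors. NF-kB dimers in turn switch on several of their own inhibitors and subunits, survival genes of the BCL2 family and surface molecules through which B cells meet T cells. BAFF also feeds PI3K and mTOR signalling, which raises the metabolic capacity of the resting B cell.

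The libraries at 27h held 10497802 and 11186353 gene counts, against 10548983 and 11454611 at 6h, within the range of 10497802 to 11888765 over the series. Reads outside any feature made up 6.91 and 7.49% of the reads tallied at 27h, against 11.5 and 9.67% at 6h, and reads with more than 1 alignment 47.1 and 47.0% at 27h, against 38.8 and 41.5% at 6h. Both shares separate the times, and their part in the results was not tested. All 10 B cell markers were measured, with a summed level of 6791 and 7055 CPM at 27h, against 6635 and 6632 CPM at 6h, so B cell transcripts were present at both times. Of the 10, 2 rose and 3 fell, beside 15.9% higher and 18.2% lower over all genes tested. 4 of 18 tested macrophage and monocyte markers rose (22.2%, against 15.9% of all genes) and none fell. Their summed level over all 20 markers was 89.4 and 97.2 CPM at 27h, against 47.6 and 45.9 CPM at 6h. Of these markers Adgre1, Lyz2, Cd5l and Marco passed the test, Cd5l with an adjusted p of 0.0557 without 6h replicate 2 and Marco of 0.208 without 27h replicate 2, 0.141 without 6h replicate 2. Csf1r stood at 2.21 and 1.68 CPM at 27h, against 2.20 and 1.19 CPM at 6h, and Cx3cr1 was at 0 in all 4 libraries. Of 7 tested dendritic cell markers 2 fell and none rose, with a summed level over all 9 of 35.5 and 36.5 CPM at 27h, against 68.9 and 68.02 CPM at 6h, most of it from Flt3 and Zbtb46. The falls were Zbtb46 and Cd209a, and the adjusted p of Cd209a was 0.0774 without 27h replicate 1, 0.236 without 27h replicate 2, 0.0665 without 6h replicate 1, 0.258 without 6h replicate 2. The T cell genes Cd3d, Cd3e, Cd3g, Cd4 and Cd8a were at most 0.340 CPM in the 4 libraries, although 2 of 6 tested T cell markers, Lck and Zap70, rose. The adjusted p of Lck was 0.0763 without 27h replicate 1, 0.0657 without 27h replicate 2, 0.074 without 6h replicate 1, 0.0957 without 6h replicate 2, and that of Zap70 0.17 without 27h replicate 1, 0.0736 without 27h replicate 2, 0.105 without 6h replicate 1, 0.207 without 6h replicate 2. Levels are CPM, counts set against library sizes scaled by the trimmed mean of M-values. In bulk libraries fewer cells of a type and less RNA per cell cannot be told apart.

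Across the transcriptome 4309 genes differed between 27h and 6h at an adjusted p under 0.05 in edgeR's quasi-likelihood test with Benjamini-Hochberg adjustment, 34.1% of those tested. Of these, 2010 were higher at 27h (15.9%) and 2299 were lower (18.2%). These shares over all genes tested are the background for each count of list members below. Changes of at least 2-fold were found for 785 genes higher (6.22%) and 615 genes lower (4.87%), and of at least 4-fold for 197 higher and 178 lower. The count of changed genes was 2100 without 27h replicate 1, 2345 without 27h replicate 2, 2241 without 6h replicate 1 and 2209 without 6h replicate 2, and 1678 genes (13.3%) passed in all 4 of these fits, 673 of them higher (5.33%) and 1005 lower (7.96%). With the 6 wild-type libraries alone the count was 7662, 3832 higher and 3830 lower, and with the 4 compared libraries alone 7531. In the fit over all 14 the spread includes groups whose 2 libraries differ more, with a chi-square per gene of 22.0 for cko at 6h, 30.9 for dbko at 0h and 35.5 for dbko at 6h, against 2.84 for wild type at 27h and 4.76 at 6h. On plain library totals 2671 genes were higher and 1692 lower, since that scaling moves the median log2 fold change of all genes to 0.13, against 0.01 in the scaling used here. The 2 libraries of each time were sequenced in different lanes, and each of the 4309 genes changed in the same direction within lane 7 and within lane 8. The calls were made from these same 4 libraries, so that agreement is no separate support for them. Over all genes tested, both 27h libraries lay above both 6h libraries in 40.5% and below both in 39.0%.

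**Figure D1:**
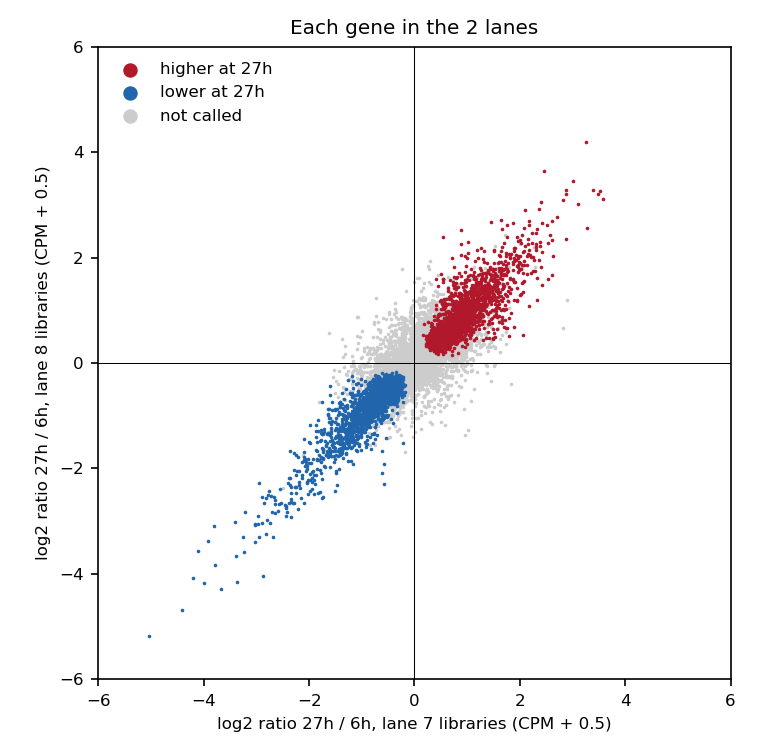
Log2 ratio of CPM + 0.5 at 27h over 6h for each of the 12630 genes tested, in the lane 7 libraries (x axis) and the lane 8 libraries (y axis). The 2010 genes higher at 27h (red) and the 2299 lower (blue) lie on the same side of 0 in both lanes, and genes that did not pass the test are grey. The calls were made from the libraries plotted, so the agreement of the lanes is no separate support for them.

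The 15 largest rises among genes with a mean of at least 3 log2 CPM joined a surface receptor, a chemokine, oxygen and heme enzymes and genes of DNA replication. Cd244a (ENSMUSG00000004709, chromosome 1, 171559193 to 171609746, plus strand, GRCm38), which encodes the receptor 2B4 known from natural killer cells, had 37.5 and 46.2 CPM at 27h, against 3.48 and 2.04 at 6h. Cd244a changed by 3.93 ± 0.32 on the log2 scale at 27h against 6h (SE, edgeR adjusted p = 6.72e-06). Hmox1 (ENSMUSG00000005413, chromosome 8, 75093621 to 75100589, plus strand), the enzyme that breaks down heme, had 464 and 467 CPM at 27h, against 62.3 and 50.1 at 6h. For Hmox1 the log2 fold change of 27h over 6h was 3.05 ± 0.22 (SE, edgeR adjusted p = 4.87e-06). In both genes the 2 libraries at 27h lay far above the 2 at 6h. Ccl22, a chemokine that draws cells bearing the receptor CCR4, had 38.7 and 36.6 CPM at 27h, against 4.85 and 3.31 at 6h. Ccl22 changed by 3.20 ± 0.38 on the log2 scale at 27h against 6h (SE, edgeR adjusted p = 9.52e-05). Egln3, an oxygen-sensing prolyl hydroxylase, had 208 and 213 CPM at 27h, against 23.8 and 25.6 at 6h. For Egln3 the log2 fold change of 27h over 6h was 3.09 ± 0.58 (SE, edgeR adjusted p = 0.00338). Sept9, a filament-forming GTPase of the cytoskeleton, had a log2 fold change of 2.27. That of Lrp8, a lipoprotein receptor, was 2.49, and that of Slc39a4, a zinc importer, 2.35. The replication and checkpoint genes Dtl, Mcm10, Clspn and Chek1, and the NADPH-binding protein gene Nmral1, also rank among the 15. Cdc6, described with the S phase list below, is a further replication gene among them. Dtl, Mcm10, Clspn, Chek1 and Nmral1, however, each lost the call when at least 1 of the 4 libraries was left out. With 1 library left out the adjusted p of Dtl was 0.0747 without 6h replicate 1, 0.0536 without 6h replicate 2. That of Mcm10 was 0.0702 without 27h replicate 1, 0.059 without 27h replicate 2, 0.111 without 6h replicate 1, 0.0901 without 6h replicate 2. That of Clspn was 0.109 without 27h replicate 1, 0.112 without 27h replicate 2, 0.142 without 6h replicate 1, 0.188 without 6h replicate 2. That of Chek1 was 0.071 without 27h replicate 1, 0.068 without 27h replicate 2, 0.105 without 6h replicate 1, 0.117 without 6h replicate 2, and that of Nmral1 0.0581 without 6h replicate 2.

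The 15 largest falls took in 2 chemokine genes, 2 genes of orphan nuclear receptors, a kinase, a receptor adaptor and an AP-1 subunit. Ccl4 (ENSMUSG00000018930, chromosome 11, 83662584 to 83664683, plus strand), a chemokine that activated B cells release, had 29.9 and 27.2 CPM at 0h, 323 and 420.2 at 6h, and 14.7 and 15.8 at 27h. Ccl4 changed by -4.60 ± 0.42 on the log2 scale at 27h against 6h (SE, edgeR adjusted p = 5.14e-05). Ccl3, its neighbour in the same chemokine family, had 11.8 and 11.6 CPM at 0h, 170.0 and 238 at 6h, and 20.3 and 22.2 at 27h. For Ccl3 the log2 fold change of 27h over 6h was -3.26 ± 0.38 (SE, edgeR adjusted p = 0.000196). Both stood higher in the 6h libraries than in any library at 0h or 27h. Nr4a1 (ENSMUSG00000023034, chromosome 15, 101254269 to 101274795, plus strand), an orphan nuclear receptor induced by antigen receptor signals, had 3639.8 and 3711 CPM at 0h, 1094 and 1427 at 6h, and 68.6 and 78.7 at 27h. Nr4a1 changed by -4.10 ± 0.51 on the log2 scale at 27h against 6h (SE, edgeR adjusted p = 0.000336). Plk2, a kinase gene known as a p53 target, had 710.4 and 727 CPM at 0h, 106 and 127 at 6h, and 7.82 and 5.99 at 27h. For Plk2 the log2 fold change of 27h over 6h was -4.08 ± 0.26 (SE, edgeR adjusted p = 1.55e-06). For these 2 genes the level was highest at 0h and lowest at 27h. Irs2, an adaptor of insulin and interleukin-4 receptors, had 19.3 and 19.6 CPM at 27h, against 272 and 286 at 6h. Irs2 changed by -3.85 ± 0.29 on the log2 scale at 27h against 6h (SE, edgeR adjusted p = 6.72e-06). Gfi1, a transcriptional repressor of blood cells, had a log2 fold change of -3.37, and Fosl2, an AP-1 subunit, of -3.49. That of Itgb3, an integrin beta chain, was -2.96, and that of Cdk5r1, an activator of the kinase CDK5, -3.06.

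**Figure D2:**
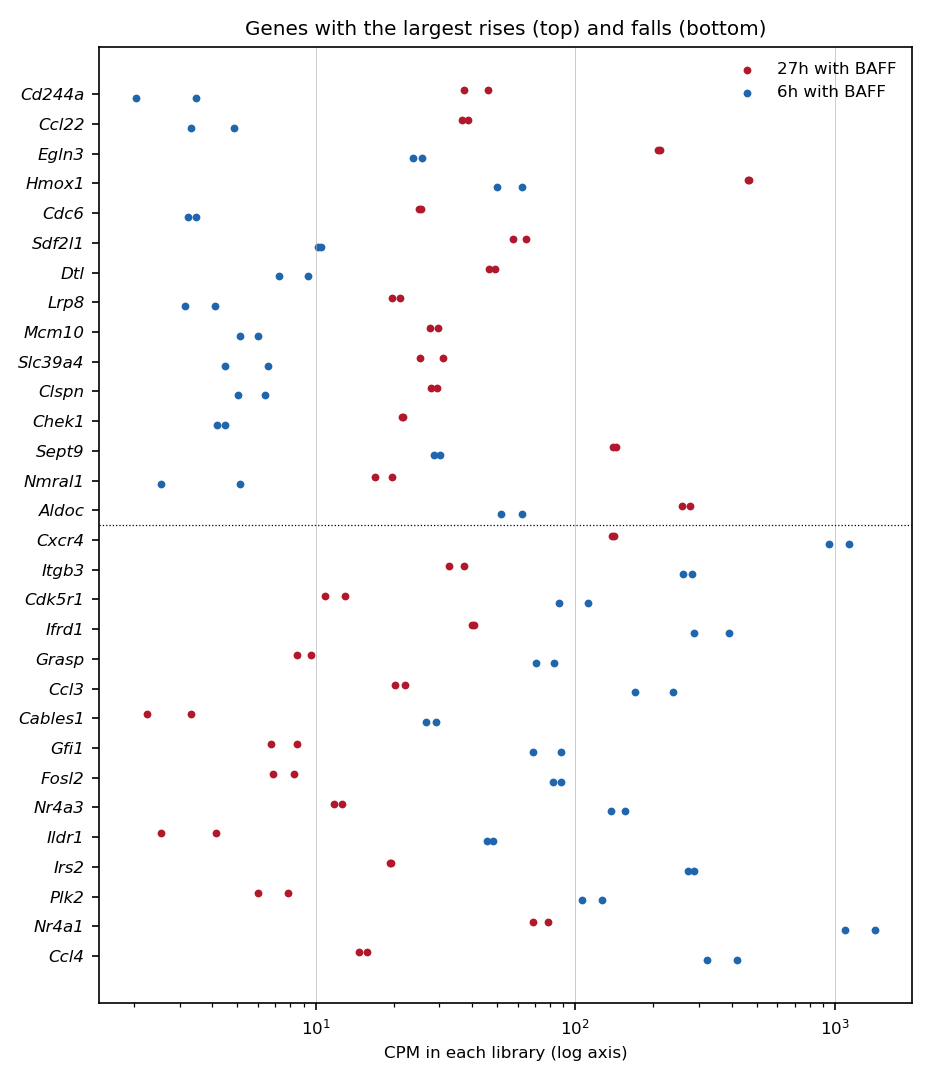
CPM in each library (log axis) for the 15 genes with the largest rises and the 15 with the largest falls, with 27h in red above 6h in blue. In every row the 2 libraries at 27h lie wholly on one side of the 2 at 6h, from Cd244a at 37.5 and 46.2 CPM at 27h, against 3.48 and 2.04 at 6h, down to Ccl4 at 14.7 and 15.8 CPM at 27h, against 323 and 420.2 at 6h. The rows were chosen as the largest called changes. Over all genes tested, both 27h libraries lay above both 6h libraries in 40.5% and below both in 39.0%.

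All 5 NF-kB subunit genes fell, Rel the most. Rel (ENSMUSG00000020275, chromosome 11, 23736847 to 23770970, minus strand), which encodes c-Rel, had 633 and 621 CPM at 0h, 672 and 683 at 6h, and 196 and 198 at 27h. For Rel the log2 fold change of 27h over 6h was -1.78 ± 0.13 (SE, edgeR adjusted p = 4.87e-06). Relb had 115 and 117 CPM at 0h, 149.5 and 164 at 6h, and 63.9 and 66.4 at 27h. Relb changed by -1.27 ± 0.14 on the log2 scale at 27h against 6h (SE, edgeR adjusted p = 5.45e-05). Nfkb1, the source of p50, had 409 and 421 CPM at 0h, 650.1 and 679.8 at 6h, and 390.4 and 398 at 27h. For Nfkb1 the log2 fold change of 27h over 6h was -0.75 ± 0.15 (SE, edgeR adjusted p = 0.00273). At 27h Rel and Relb also lay under both 0h libraries, while Nfkb1 was near its 0h level. Log2 fold changes were -0.78 for Rela and -0.67 for Nfkb2. With 1 library left out the adjusted p of Rela was 0.0545 without 27h replicate 1, and that of Nfkb2 0.0602 without 27h replicate 1. The median log2 fold change over the 5 genes was -0.78, beside 0.01 over all genes tested.

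Of the 9 inhibitors and negative regulators of NF-kB tested, 7 fell and none rose, with a median log2 fold change of -0.67, and 5 of the falls passed with any 1 of the 4 libraries left out. Nfkbid, which encodes the nuclear inhibitor IkBNS, had 513 and 568 CPM at 0h, 911 and 1129 at 6h, and 192 and 219 at 27h. Nfkbid changed by -2.31 ± 0.37 on the log2 scale at 27h against 6h (SE, edgeR adjusted p = 0.00121). Nfkbia, the gene of IkB alpha, had 186 and 193 CPM at 27h, against 339 and 385 at 6h. For Nfkbia the log2 fold change of 27h over 6h was -0.94 ± 0.21 (SE, edgeR adjusted p = 0.0046). Tnfaip3, the gene of the ubiquitin-editing enzyme A20, had 1612 and 1575 CPM at 0h, 382 and 431 at 6h, and 143 and 167 at 27h. Tnfaip3 changed by -1.39 ± 0.28 on the log2 scale at 27h against 6h (SE, edgeR adjusted p = 0.00303). Further falls were those of Nfkbiz, at a log2 fold change of -1.57, and Nfkbie, at -0.67. Bcl3, an atypical IkB protein that can act as a coactivator with p50 and p52, stood apart from the list with 49.8 and 52.2 CPM at 0h, 68.00 and 71.1 at 6h, and 102 and 105 at 27h, but its difference did not pass the test (edgeR adjusted p = 0.186). Among 11 adaptors and kinases 5 fell and none rose. They are Traf1 (-0.67), Birc3 (-0.65), Traf6 (-0.50), Traf2 (-0.38) and Map3k14 (-0.46, all as log2 fold changes). The adjusted p of Traf2 was 0.112 without 27h replicate 1, 0.0615 without 27h replicate 2, 0.0924 without 6h replicate 1, 0.0619 without 6h replicate 2, and that of Map3k14 0.207 without 27h replicate 1, 0.141 without 27h replicate 2, 0.143 without 6h replicate 1, 0.174 without 6h replicate 2. Traf3, the adaptor whose loss frees NIK, had 147 and 141 CPM at 27h, against 143 and 133 at 6h (edgeR adjusted p = 0.716).

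Several of these genes carry NF-kB motifs close to their start, and the windows that hold them are printed here because the genes moved together. Sequences are from the RefSeq promoter table on GRCm38.p6, read on the strand of the gene, and capitals mark matches to the NF-kB motif within the 250 bases before the start, on either strand.
Nfkbia, chr12:55492648-55492716, minus strand: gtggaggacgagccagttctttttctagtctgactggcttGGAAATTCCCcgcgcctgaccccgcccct
Nfkbid, chr7:30422180-30422274, plus strand: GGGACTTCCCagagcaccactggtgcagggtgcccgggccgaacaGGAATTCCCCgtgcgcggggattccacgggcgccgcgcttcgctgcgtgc
Tnfaip3, chr10:19015411-19015462, minus strand: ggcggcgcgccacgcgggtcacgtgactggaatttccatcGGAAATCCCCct
Rel, chr11:23771011-23771100, minus strand: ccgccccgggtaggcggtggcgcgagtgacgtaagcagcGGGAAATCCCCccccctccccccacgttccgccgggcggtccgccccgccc
Nfkb2, chr19:46304686-46304736, plus strand: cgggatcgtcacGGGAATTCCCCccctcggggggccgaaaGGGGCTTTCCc
The motif was found in 6 of 8 inhibitor genes with a promoter in the table (75.0%), in 2 of 3 subunit genes and in 3 of 13 costimulation genes (23.1%), against 984 of 9422 tested genes with a promoter (10.4%). The pairs of list and motif were chosen after the values were seen. A match describes the letters of the window and is no measure of binding.

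**Figure D3:**
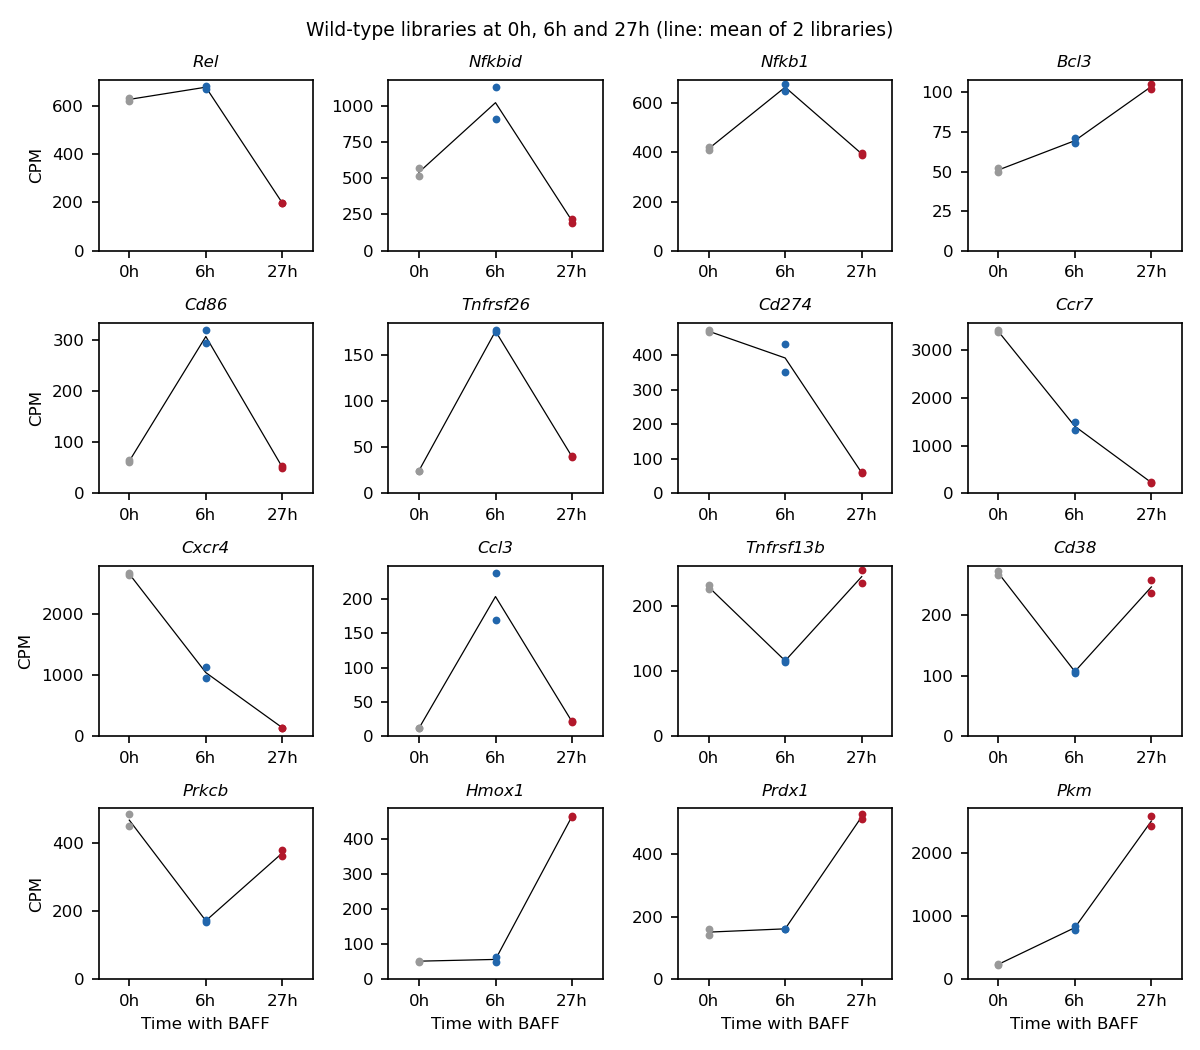
CPM in the wild-type libraries at 0h, 6h and 27h for 16 genes, with each library as a point and the mean of 2 as a line. Nfkbid, Nfkb1, Cd86, Tnfrsf26 and Ccl3 are highest at 6h, Cd274, Ccr7 and Cxcr4 decline over the 3 times, Tnfrsf13b, Cd38 and Prkcb are lowest at 6h, and Hmox1, Prdx1 and Pkm are highest at 27h.

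Among receptors of the TNF family the gene of TACI rose and Tnfrsf26 fell. The gene of BAFF-R, Tnfrsf13c, had 327 and 309.5 CPM at 27h, against 260.1 and 291 at 6h (edgeR adjusted p = 0.181). Tnfrsf13b, which encodes the second BAFF receptor TACI, had 232 and 227 CPM at 0h, 117 and 115 at 6h, and 255 and 235 at 27h. For Tnfrsf13b the log2 fold change of 27h over 6h was 1.08 ± 0.13 (SE, edgeR adjusted p = 0.000108). Its 27h level lay above both 6h libraries and close to the 0h libraries. Tnfrsf26, another member of the receptor family, had 24.7 and 24.5 CPM at 0h, 174 and 177 at 6h, and 38.99 and 40.3 at 27h. Tnfrsf26 changed by -2.14 ± 0.12 on the log2 scale at 27h against 6h (SE, edgeR adjusted p = 1.39e-06). Among ligands Tnf fell by 1.18 on the log2 scale, with 10.4 and 14.2 CPM at 27h, against 27.2 and 28.7 at 6h. In all, 2 of 15 receptor genes rose and 3 fell, shares of 13.3 and 20.0% near the 15.9 and 18.2% of all genes.

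Genes that guard against or carry out cell death were called in both directions. Of 10 pro-survival genes 3 rose and 4 fell, and of 14 pro-apoptotic genes 5 rose and 4 fell, against 15.9% higher and 18.2% lower over all genes. With any 1 of the 4 libraries left out, 1 fall and no rise held among the pro-survival genes, and 3 rises and 3 falls among the pro-apoptotic ones. Bcl2l11, which encodes the BH3-only killer protein BIM, had 187 and 171 CPM at 0h, 470.1 and 475 at 6h, and 189 and 179 at 27h. For Bcl2l11 the log2 fold change of 27h over 6h was -1.36 ± 0.20 (SE, edgeR adjusted p = 0.000371). Bmf, another BH3-only gene, had 127 and 123 CPM at 0h, 81.3 and 84.4 at 6h, and 27.8 and 29.1 at 27h. Bmf changed by -1.54 ± 0.21 on the log2 scale at 27h against 6h (SE, edgeR adjusted p = 0.00026). Pmaip1, the gene of NOXA, had 324 and 323 CPM at 0h, 51.6 and 60.2 at 6h, and 27.02 and 29.4 at 27h. For Pmaip1 the log2 fold change of 27h over 6h was -0.99 ± 0.18 (SE, edgeR adjusted p = 0.00166). These 3 BH3-only genes fell, but the BH3-only genes had no common direction. Bid, another of them, named after its values were seen, was called higher. Its log2 ratio of 27h over 6h was 0.66 in lane 7 and 0.62 in lane 8. As 5 genes of the pro-apoptotic list rose, the list had no common direction either. The caspase gene Casp9 rose by 0.51 on the log2 scale. Bcl2 had 144 and 134 CPM at 0h, 55.9 and 50.3 at 6h, and 96.1 and 84.7 at 27h. For Bcl2 the log2 fold change of 27h over 6h was 0.77 ± 0.19 (SE, edgeR adjusted p = 0.00902), which became 0.0727 without 27h replicate 1, 0.0778 without 6h replicate 2. Pim2, a survival kinase gene, had 47.2 and 46.95 CPM at 0h, 126 and 134 at 6h, and 337 and 331 at 27h. For Pim2 the log2 fold change of 27h over 6h was 1.36 ± 0.38 (SE, edgeR adjusted p = 0.0221), which became 0.0908 without 27h replicate 1, 0.0793 without 27h replicate 2, 0.124 without 6h replicate 1, 0.103 without 6h replicate 2. The pro-survival falls were Bcl2l1, the gene of BCL-XL, the kinase genes Pim1 and Pim3, and Cflar, which encodes an inhibitor of death receptor signals. Bcl2l1 had 10.5 and 9.68 CPM at 0h, 62.8 and 72.4 at 6h, and 37.98 and 38.2 at 27h. Bcl2l1 changed by -0.83 ± 0.16 on the log2 scale at 27h against 6h (SE, edgeR adjusted p = 0.002), the fall that held. Log2 fold changes were -1.20 for Pim1, -1.21 for Pim3 and -0.48 for Cflar. The adjusted p of Pim1 was 0.0565 without 27h replicate 1. That of Pim3 was 0.116 without 27h replicate 1, 0.0803 without 27h replicate 2, 0.0601 without 6h replicate 1, 0.0943 without 6h replicate 2, and that of Cflar 0.0837 without 27h replicate 1, 0.0729 without 27h replicate 2, 0.0966 without 6h replicate 2. Mcl1, which mature B cells need to survive, had 874 and 889 CPM at 27h, against 718 and 737 at 6h (edgeR adjusted p = 0.0828).

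Immediate early genes, which cells switch on within minutes of a signal, had the lowest median of the 59 lists. Of 27 tested, 18 fell and 1 rose, with a median log2 fold change of -1.36, and 13 falls passed with any 1 of the 4 libraries left out. Dusp1, a phosphatase that ends MAP kinase signals, had 446 and 469.8 CPM at 0h, 28.6 and 33.9 at 6h, and 6.63 and 6.71 at 27h. Dusp1 changed by -2.23 ± 0.15 on the log2 scale at 27h against 6h (SE, edgeR adjusted p = 1.58e-06). Klf6, a zinc-finger factor, had 2025 and 1994 CPM at 0h, 265 and 305 at 6h, and 98.6 and 92.6 at 27h. For Klf6 the log2 fold change of 27h over 6h was -1.58 ± 0.15 (SE, edgeR adjusted p = 2.05e-05). Nr4a3 had 126 and 115 CPM at 0h, 137 and 156 at 6h, and 12.7 and 11.8 at 27h. Nr4a3 changed by -3.58 ± 0.28 on the log2 scale at 27h against 6h (SE, edgeR adjusted p = 9.88e-06). Dusp1 and Klf6 were far higher at 0h than at either later time, while Nr4a3 stood somewhat higher at 6h than at 0h. The genes of the quiescence list also leaned down, with 6 of 17 lower (35.3%, against 18.2% of all genes) and 1 higher (5.88%, against 15.9%). Pik3ip1, an inhibitor of PI3K, had 113 and 115 CPM at 0h, 161 and 169 at 6h, and 41.5 and 36.7 at 27h. For Pik3ip1 the log2 fold change of 27h over 6h was -2.08 ± 0.13 (SE, edgeR adjusted p = 1.49e-06). Tsc22d3, the glucocorticoid-induced gene GILZ, had 1340.2 and 1385 CPM at 0h, 167 and 194 at 6h, and 58.4 and 54.8 at 27h. Tsc22d3 changed by -1.67 ± 0.17 on the log2 scale at 27h against 6h (SE, edgeR adjusted p = 3.1e-05).

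Costimulatory genes included Cd86, Cd274 and Cd83 among the falls and Slamf6 among the rises. Of 17 tested, 7 fell and 3 rose, and 5 falls and 3 rises passed with any 1 of the 4 libraries left out. The share that rose, 17.6%, is near the 15.9% of all genes, and 41.2% fell, against 18.2%. Cd86, the ligand of CD28 on T cells, had 64.6 and 61.7 CPM at 0h, 293 and 319 at 6h, and 53.1 and 48.9 at 27h. For Cd86 the log2 fold change of 27h over 6h was -2.58 ± 0.25 (SE, edgeR adjusted p = 3.21e-05). Cd274, which encodes PD-L1, had 466 and 473 CPM at 0h, 352 and 431 at 6h, and 58.3 and 61.4 at 27h. Cd274 changed by -2.71 ± 0.15 on the log2 scale at 27h against 6h (SE, edgeR adjusted p = 1.39e-06). Cd83, an activation marker that stabilises surface MHC class II, had 3766 and 3673 CPM at 0h, 1145 and 1373 at 6h, and 353 and 351 at 27h. For Cd83 the log2 fold change of 27h over 6h was -1.84 ± 0.20 (SE, edgeR adjusted p = 4.21e-05). The time courses of the 3 differed: Cd86 was high at 6h alone, and the other two were highest at 0h. Slamf6, a homophilic SLAM receptor, had 161 and 171 CPM at 27h, against 74.04 and 68.1 at 6h. Slamf6 changed by 1.22 ± 0.20 on the log2 scale at 27h against 6h (SE, edgeR adjusted p = 0.000946), and the gene of 2B4, a receptor of the same family, was the largest of the rises named above. Slamf7 fell by 0.86 on the log2 scale.

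Receptors for exit from and homing to lymphoid tissue were lower more often than higher, with 10 of 22 lower and 2 higher, and 8 falls passed with any 1 of the 4 libraries left out. Lower and higher calls made up 45.45 and 9.09% of this list, against 18.2 and 15.9% of all genes. Ccr7, which guides B cells to the border of the T cell zone, had 3358 and 3399 CPM at 0h, 1320.3 and 1481 at 6h, and 223 and 232 at 27h. Ccr7 changed by -2.62 ± 0.29 on the log2 scale at 27h against 6h (SE, edgeR adjusted p = 6.46e-05). Cxcr4, the receptor for CXCL12, had 2645 and 2664 CPM at 0h, 945 and 1137 at 6h, and 141 and 138 at 27h. For Cxcr4 the log2 fold change of 27h over 6h was -2.90 ± 0.27 (SE, edgeR adjusted p = 2.09e-05). Cnr2, the cannabinoid receptor that helps hold marginal zone B cells in place, had 485 and 483 CPM at 0h, 278 and 264 at 6h, and 115 and 101 at 27h. Cnr2 changed by -1.32 ± 0.12 on the log2 scale at 27h against 6h (SE, edgeR adjusted p = 1.32e-05). All 3 were lower at each later time. Ccr9, a receptor of gut homing, differed in shape, with 1.35 and 1.84 CPM at 0h, 17.2 and 18.7 at 6h, and 3.31 and 2.32 at 27h. For Ccr9 the log2 fold change of 27h over 6h was -2.67 ± 0.19 (SE, edgeR adjusted p = 3.3e-06). Cxcr5, which leads B cells into follicles, had 1583 and 1589 CPM at 0h, 480.0 and 484 at 6h, and 471 and 464 at 27h (edgeR adjusted p = 0.911 for 27h against 6h), so a difference between the later times was not detected.

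Cytokine receptor genes were also lower more often than higher, with 11 of 21 lower, 4 higher and a median log2 fold change of -0.49, and 5 falls but no rise passed with any 1 of the 4 libraries left out. The lower and higher shares were 52.4 and 19.05%, against 18.2 and 15.9% of all genes. Il7r, a receptor chain typical of early B cells and T cells, had 0.834 and 0.387 CPM at 0h, 18.03 and 22.00 at 6h, and 3.06 and 4.47 at 27h. Il7r changed by -2.40 ± 0.22 on the log2 scale at 27h against 6h (SE, edgeR adjusted p = 1.45e-05). Tgfbr1 had 43.3 and 40.98 CPM at 27h, against 91.7 and 86.03 at 6h. For Tgfbr1 the log2 fold change of 27h over 6h was -1.08 ± 0.11 (SE, edgeR adjusted p = 3.13e-05). Of the signalling genes behind them, Stat5b had a log2 fold change of -0.90 and Stat6 of -0.91. Socs3, a feedback inhibitor of cytokine receptors, went the other way, with 75.97 and 74.3 CPM at 0h, 15.01 and 13.6 at 6h, and 45.9 and 51.9 at 27h. Socs3 changed by 1.77 ± 0.21 on the log2 scale at 27h against 6h (SE, edgeR adjusted p = 7.88e-05). Ebi3, a subunit of interleukin-27 and interleukin-35, had 30.5 and 25.6 CPM at 27h, against 6.96 and 8.49 at 6h. For Ebi3 the log2 fold change of 27h over 6h was 1.86 ± 0.22 (SE, edgeR adjusted p = 8.85e-05).

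Of 18 antigen receptor signalling genes 4 were higher and 4 lower, 22.2% each way, near the 15.9 and 18.2% of all genes. The 2 genes named first had 27h levels between those at 6h and 0h or near those at 0h. Prkcb, the protein kinase that links the receptor to NF-kB, had 487 and 449.9 CPM at 0h, 175 and 168 at 6h, and 381 and 363 at 27h. Prkcb changed by 1.11 ± 0.14 on the log2 scale at 27h against 6h (SE, edgeR adjusted p = 0.00012). Plcg2, the phospholipase upstream, had 544 and 511 CPM at 0h, 287 and 284 at 6h, and 534 and 570.1 at 27h. Plcg2 changed by 0.95 ± 0.12 on the log2 scale at 27h against 6h (SE, edgeR adjusted p = 0.000115). Malt1, a protease of the pathway to NF-kB, fell instead, with 551 and 551 CPM at 0h, 462 and 474 at 6h, and 232 and 218 at 27h. For Malt1 the log2 fold change of 27h over 6h was -1.06 ± 0.12 (SE, edgeR adjusted p = 8.07e-05). Cd38, a surface enzyme that mature follicular B cells carry, had 266 and 274 CPM at 0h, 105 and 109 at 6h, and 258 and 236 at 27h. Cd38 changed by 1.21 ± 0.16 on the log2 scale at 27h against 6h (SE, edgeR adjusted p = 0.000169). Fcer2a, the gene of the follicular marker CD23, had 1192 and 1251 CPM at 0h, 552 and 515 at 6h, and 258 and 269 at 27h. For Fcer2a the log2 fold change of 27h over 6h was -1.02 ± 0.17 (SE, edgeR adjusted p = 0.000759).

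Transcription factors of the B cell lineage were lower more often than higher, 8 against 6 of 20, but on plain library totals the counts were 6 and 7. Irf4, which drives activation and plasma cell formation, had 2621 and 2568 CPM at 0h, 1220.1 and 1302 at 6h, and 470.5 and 485 at 27h. Irf4 changed by -1.40 ± 0.18 on the log2 scale at 27h against 6h (SE, edgeR adjusted p = 0.000123). Bach2, which holds back plasma cell formation, had 485 and 428 CPM at 0h, 505 and 459.7 at 6h, and 279 and 278 at 27h. For Bach2 the log2 fold change of 27h over 6h was -0.79 ± 0.15 (SE, edgeR adjusted p = 0.0016). Ebf1, a factor of B cell identity, had 429.6 and 426 CPM at 0h, 256 and 269 at 6h, and 157 and 162 at 27h. Ebf1 changed by -0.72 ± 0.14 on the log2 scale at 27h against 6h (SE, edgeR adjusted p = 0.0024). Pou2f2, the gene of OCT2, rose by 0.90 on the log2 scale. Zbtb32, a zinc-finger repressor, had 2.19 and 2.52 CPM at 0h, 10.2 and 10.3 at 6h, and 38.8 and 40.98 at 27h. For Zbtb32 the log2 fold change of 27h over 6h was 1.96 ± 0.35 (SE, edgeR adjusted p = 0.00142). Of 14 plasma cell genes 5 rose and 4 fell, 35.7 and 28.6%, against 15.9 and 18.2% of all genes. Derl3, Xbp1 and Zbtb32 were among the rises and Irf4, Slamf7 and Cd93 among the falls. Prdm1, the gene of the plasma cell factor BLIMP1, had 16.5 and 16.9 CPM at 0h, 52.4 and 49.9 at 6h, and 58.2 and 55.7 at 27h (edgeR adjusted p = 0.648 for 27h against 6h). None of 8 immunoglobulin constant genes passed the edgeR test, with 7900.3 and 7844 CPM at 27h, against 5252 and 5423 at 6h for Ighm (edgeR adjusted p = 0.0757). In 5 of them, Ighm and the light chain genes Igkc and Iglc2 among these, both 27h libraries lay above both 6h libraries, as in 40.5% of all genes, while in 39.0% both lay below. At an unadjusted edgeR p under 0.05, 2 of the 8 differed, Ighm and Ighg1, against 5647 of the 12630 genes tested, so the constant genes did not stand out. DESeq2 called 1 of the 8 higher, and 1703 genes higher in all.

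MHC class II genes fell in 4 of 14 cases (28.6%, against 18.2% of all genes) and rose in none. Among the falls, H2-Eb1 had 5389.8 and 5525 CPM at 0h, 2223 and 2563 at 6h, and 1326 and 1293 at 27h. H2-Eb1 changed by -0.87 ± 0.18 on the log2 scale at 27h against 6h (SE, edgeR adjusted p = 0.00274). Only that fall passed with any 1 of the 4 libraries left out. Of 32 interferon-stimulated genes 5 rose and 4 fell, shares of 15.6 and 12.5% that lie near the 15.9 and 18.2% of all genes.

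**Figure D4:**
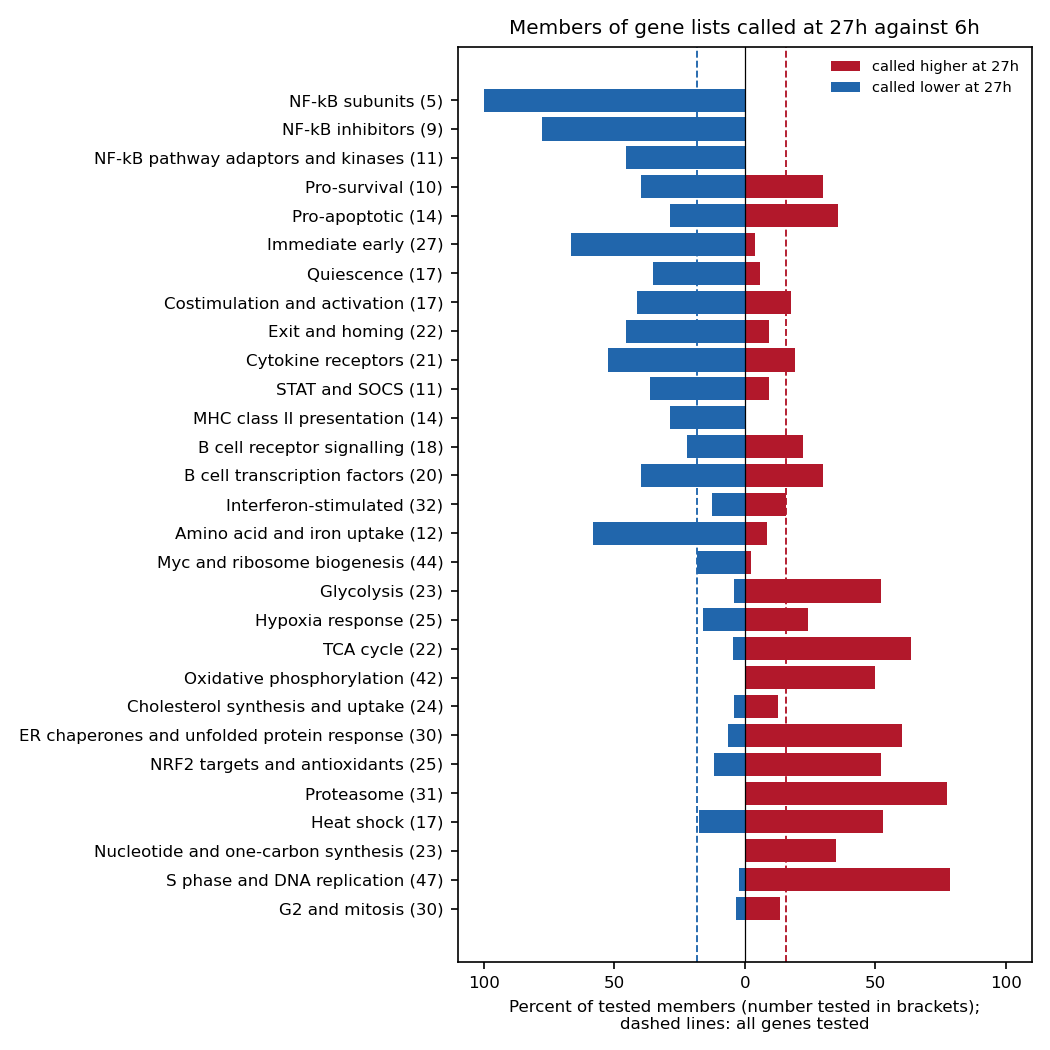
Percent of tested members called higher at 27h (red, to the right) and lower (blue, to the left) for 29 gene lists, with the number tested in brackets and dashed lines at the 15.9 and 18.2% of all genes. Lower calls lead in the NF-kB, immediate early, homing, cytokine receptor and uptake lists. Higher calls lead from glycolysis to S phase, apart from the hypoxia, cholesterol and mitosis lists, which lie near or under the line for all genes.

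Genes of energy metabolism were higher at 27h more often than lower. In glycolysis 12 of 23 genes rose and 1 fell, with a median log2 fold change of 0.78, and 4 rises passed with any 1 of the 4 libraries left out. Pkm, pyruvate kinase, had 225 and 243 CPM at 0h, 784 and 851 at 6h, and 2431 and 2596 at 27h. For Pkm the log2 fold change of 27h over 6h was 1.62 ± 0.30 (SE, edgeR adjusted p = 0.00236). Aldoc, an aldolase, had 10.7 and 14.3 CPM at 0h, 51.9 and 62.2 at 6h, and 257 and 277 at 27h. Aldoc changed by 2.23 ± 0.27 on the log2 scale at 27h against 6h (SE, edgeR adjusted p = 0.00018). Gpi1, glucose phosphate isomerase, had 329 and 331 CPM at 0h, 624 and 646 at 6h, and 1273 and 1382 at 27h. For Gpi1 the log2 fold change of 27h over 6h was 1.06 ± 0.20 (SE, edgeR adjusted p = 0.00161). For all 3 the level was lowest at 0h and highest at 27h. The fall was in Eno2, an enolase best known from neurons, with 0.417 and 0.678 CPM at 0h, 19.5 and 21.7 at 6h, and 6.97 and 11.9 at 27h, and its adjusted p was 0.0653 without 27h replicate 1. Gapdh and some other glycolytic genes have near copies elsewhere in the genome, so their counts, which leave out reads with more than 1 alignment, are uncertain.

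Of 25 hypoxia-response genes 6 were higher and 4 lower, 24.0 and 16.0%, near the 15.9 and 18.2% of all genes. Egln3, described above, had 1.25 and 0.968 CPM at 0h. Ddit4, an inhibitor of mTOR, had 26.4 and 23.5 CPM at 0h, 69.2 and 79.7 at 6h, and 159 and 145 at 27h. Ddit4 changed by 1.03 ± 0.19 on the log2 scale at 27h against 6h (SE, edgeR adjusted p = 0.00156). Hif1a itself fell, with 123 and 115 CPM at 27h, against 189 and 202 at 6h. For Hif1a the log2 fold change of 27h over 6h was -0.71 ± 0.11 (SE, edgeR adjusted p = 0.000447).

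Of 22 genes in the TCA cycle list 14 rose and 1 fell, and of 42 genes of oxidative phosphorylation 21 rose and none fell. The median log2 fold change was 0.40 in the TCA list and 0.52 in the oxidative phosphorylation list, and 4 and 12 of the rises passed with any 1 of the 4 libraries left out. Mdh1, the cytosolic malate dehydrogenase of the TCA list, had 351 and 339 CPM at 27h, against 190.4 and 199 at 6h. Mdh1 changed by 0.82 ± 0.13 on the log2 scale at 27h against 6h (SE, edgeR adjusted p = 0.000576). Idh2, the mitochondrial isocitrate dehydrogenase, had 44.8 and 45.1 CPM at 27h, against 21.96 and 25.1 at 6h. For Idh2 the log2 fold change of 27h over 6h was 0.93 ± 0.16 (SE, edgeR adjusted p = 0.000971). Cox7a2, a subunit of cytochrome c oxidase, had 69.8 and 70.3 CPM at 0h, 43.9 and 46.8 at 6h, and 88.4 and 95.4 at 27h. Cox7a2 changed by 1.02 ± 0.13 on the log2 scale at 27h against 6h (SE, edgeR adjusted p = 0.000115). In oxidative phosphorylation the changes were small and of like size, with the largest at 1.02 on the log2 scale.

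Lipid synthesis showed no common direction. Elovl6, a fatty acid elongase, had 7.71 and 5.81 CPM at 0h, 15.3 and 13.8 at 6h, and 34.1 and 37.9 at 27h. For Elovl6 the log2 fold change of 27h over 6h was 1.31 ± 0.23 (SE, edgeR adjusted p = 0.00108). Scd1, a desaturase, had 1902 and 1850.1 CPM at 0h, 1595 and 1732 at 6h, and 1038 and 1056 at 27h. For Scd1 the log2 fold change of 27h over 6h was -0.67 ± 0.12 (SE, edgeR adjusted p = 0.0012). Of 24 cholesterol genes 3 rose and 1 fell (12.5 and 4.17%, against 15.9 and 18.2% of all genes), while DESeq2 called no rise. Abcg1, a sterol exporter, had 94.8 and 95.9 CPM at 0h, 37.4 and 35.2 at 6h, and 16.5 and 15.6 at 27h. Abcg1 changed by -1.18 ± 0.21 on the log2 scale at 27h against 6h (SE, edgeR adjusted p = 0.00123).

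Importers of amino acids and iron were lower more often than higher, with 7 of 12 lower and 1 higher and 6 falls that passed with any 1 of the 4 libraries left out. Slc7a1, the carrier of arginine and lysine, had 117 and 117 CPM at 0h, 362 and 377 at 6h, and 124 and 125 at 27h. For Slc7a1 the log2 fold change of 27h over 6h was -1.57 ± 0.15 (SE, edgeR adjusted p = 2.18e-05). Slc3a2, the heavy chain CD98, had 339.8 and 361 CPM at 0h, 331 and 373 at 6h, and 145 and 162 at 27h. Slc3a2 changed by -1.20 ± 0.15 on the log2 scale at 27h against 6h (SE, edgeR adjusted p = 0.000103). Tfrc, the transferrin receptor, had 187 and 194 CPM at 0h, 419 and 469 at 6h, and 186 and 207 at 27h. For Tfrc the log2 fold change of 27h over 6h was -1.17 ± 0.13 (SE, edgeR adjusted p = 5.34e-05). Slc7a1 and Tfrc were higher at 6h than at the other times. Psat1, an enzyme of serine synthesis, had 48.04 and 46.8 CPM at 0h, 75.7 and 67.5 at 6h, and 160.1 and 169.7 at 27h. Psat1 changed by 1.20 ± 0.18 on the log2 scale at 27h against 6h (SE, edgeR adjusted p = 0.000459). In the list of nucleotide and one-carbon synthesis 8 of 23 genes rose (34.8%, against 15.9% of all genes) and none fell.

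The list of NRF2 targets and antioxidants, genes that handle peroxides, thiols and heme, rose in 13 of 25 cases and fell in 3. The median log2 fold change was 0.60, and 10 rises and 2 falls passed with any 1 of the 4 libraries left out. Prdx1, a peroxiredoxin, had 159.7 and 141 CPM at 0h, 162 and 160.0 at 6h, and 528 and 513 at 27h. For Prdx1 the log2 fold change of 27h over 6h was 1.69 ± 0.17 (SE, edgeR adjusted p = 2.5e-05). Cat, catalase, had 182 and 183 CPM at 0h, 106 and 114 at 6h, and 299 and 284 at 27h. Cat changed by 1.41 ± 0.14 on the log2 scale at 27h against 6h (SE, edgeR adjusted p = 2.13e-05). Slc48a1, a heme transporter of the lysosome, had 33.7 and 34.7 CPM at 0h, 44.9 and 49.8 at 6h, and 131 and 133 at 27h. For Slc48a1 the log2 fold change of 27h over 6h was 1.47 ± 0.13 (SE, edgeR adjusted p = 1.34e-05). Hmox1 and Prdx1 stood at similar levels at 0h and 6h, with 49.8 and 52.6 CPM for Hmox1 at 0h. The list's 3 falls were in regulators. Nfe2l2, the gene of NRF2, had 235 and 246 CPM at 0h, 157 and 176 at 6h, and 69.3 and 62.8 at 27h. Nfe2l2 changed by -1.34 ± 0.11 on the log2 scale at 27h against 6h (SE, edgeR adjusted p = 8.06e-06). Bach1, a repressor of Hmox1, and Mafg, a partner of both, had log2 fold changes of -0.70 for Bach1 and -0.55 for Mafg. The adjusted p of Mafg was 0.192 without 27h replicate 1, 0.0943 without 6h replicate 1, 0.0836 without 6h replicate 2. Nqo1, a quinone reductase and a standard NRF2 target named after its values were seen, had 23.4 and 15.8 CPM at 27h, against 1.65 and 1.27 at 6h. Nqo1 changed by 3.74 ± 0.38 on the log2 scale at 27h against 6h (SE, edgeR adjusted p = 2.97e-05), the largest rise of the list. The summed macrophage markers, at 89.4 and 97.2 CPM at 27h, against 47.6 and 45.9 CPM at 6h, moved with this list, and their part in it was not tested.

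The antioxidant core motif, the letters TGACNNNGC on either strand, lay within the 250 bases before the start in 6 of 20 genes of the list with a promoter in the table (30.0%), against 1324 of 9422 tested genes (14.1%). The 6 were Gclm, Txnrd1, Prdx1 and Sod1, which rose, and Nfe2l2 and Mafg, which fell. The windows of 3 that rose, chosen after their values were seen, are printed with the match in capitals.
Prdx1, chr4:116685426-116685514, plus strand: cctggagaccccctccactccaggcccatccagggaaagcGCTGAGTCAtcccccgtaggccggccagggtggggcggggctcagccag
Gclm, chr3:122245383-122245471, plus strand: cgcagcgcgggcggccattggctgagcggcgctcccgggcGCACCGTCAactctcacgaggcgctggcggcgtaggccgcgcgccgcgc
Txnrd1, chr10:82859074-82859162, plus strand: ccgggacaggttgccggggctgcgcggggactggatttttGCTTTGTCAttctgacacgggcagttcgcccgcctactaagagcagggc
Gclm, a subunit of the enzyme that starts glutathione synthesis, had 86.8 and 85.6 CPM at 27h, against 33.9 and 31.1 at 6h, and Txnrd1, thioredoxin reductase, had 397 and 399 CPM at 27h, against 197 and 192 at 6h.

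**Figure D5:**
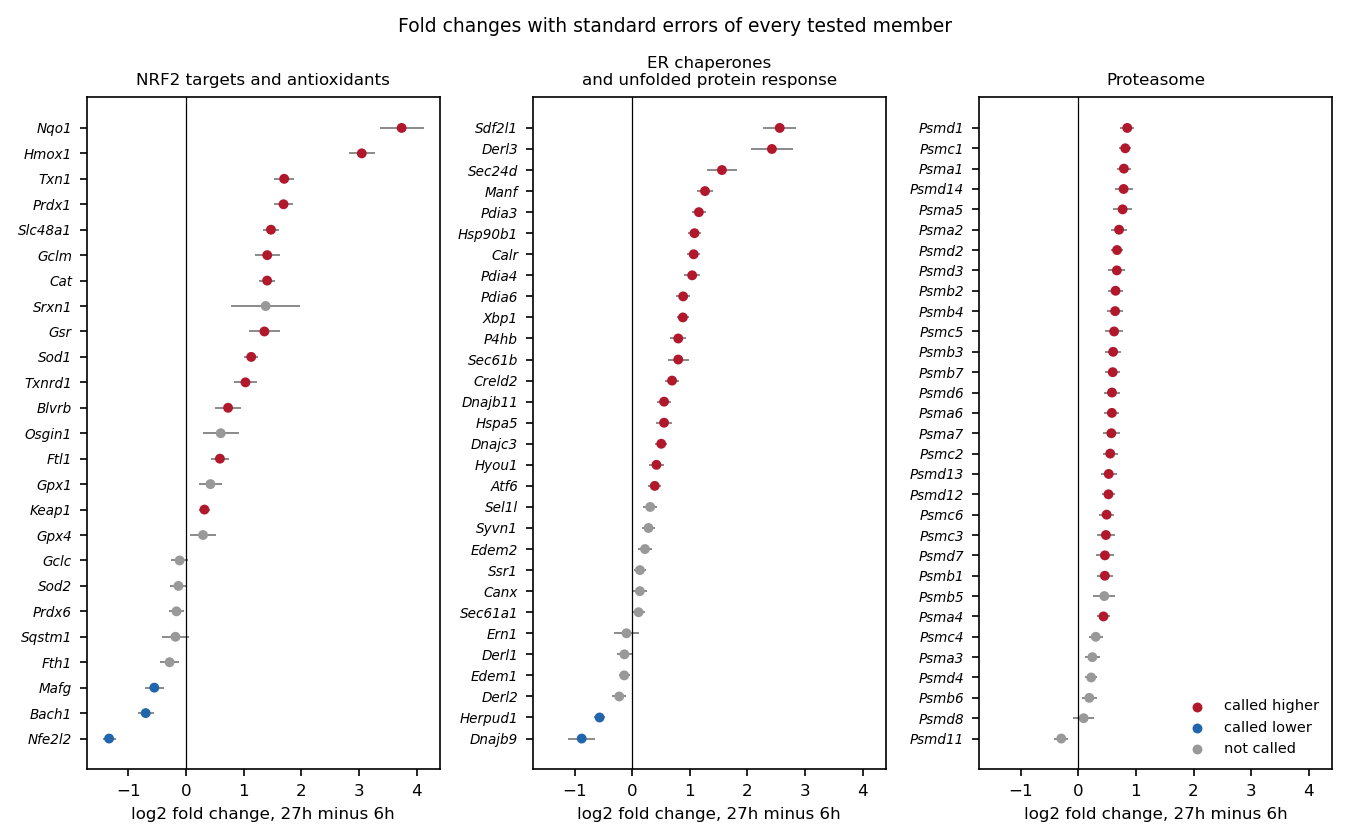
Log2 fold change (27h minus 6h) with its standard error for every tested member of 3 lists, red where higher, blue where lower and grey where the test was not passed. The antioxidant list spreads from Nfe2l2 at -1.34 to Nqo1 at 3.74, the ER list from Dnajb9 at -0.88 to Sdf2l1 at 2.56, and the proteasome list holds between -0.30 and 0.85 with 24 of 31 members higher.

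Proteasome genes moved together, with 24 of 31 higher and none lower and a median log2 fold change of 0.57. Of the rises, 13 passed with any 1 of the 4 libraries left out. Psmd1, the scaffold of the regulatory particle, had 102 and 101 CPM at 0h, 144 and 142 at 6h, and 263 and 252 at 27h. Psmd1 changed by 0.85 ± 0.12 on the log2 scale at 27h against 6h (SE, edgeR adjusted p = 0.000328). Psma1, a ring subunit of the core, had 111 and 108 CPM at 0h, 140.5 and 142 at 6h, and 246 and 243 at 27h. For Psma1 the log2 fold change of 27h over 6h was 0.79 ± 0.12 (SE, edgeR adjusted p = 0.000468). Psmc1, an ATPase of the base, had 72.3 and 80.3 CPM at 0h, 92.7 and 98.3 at 6h, and 169 and 167 at 27h. Psmc1 changed by 0.81 ± 0.11 on the log2 scale at 27h against 6h (SE, edgeR adjusted p = 0.000144). All 3 had their lowest level at 0h. The immunoproteasome gene Psmb8 had 243 and 237 CPM at 0h, 149.5 and 159 at 6h, and 251 and 253 at 27h. Psmb8 changed by 0.71 ± 0.11 on the log2 scale at 27h against 6h (SE, edgeR adjusted p = 0.000604), and its 0h and 27h levels lay close. The antioxidant core was found in 4 of 25 proteasome promoters (16.0%), near the share of all genes.

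In the list of endoplasmic reticulum (ER) chaperones and unfolded protein response genes, 18 of 30 rose and 2 fell. The median log2 fold change was 0.53, and 14 rises passed with any 1 of the 4 libraries left out. Hsp90b1, the chaperone GRP94, had 591 and 631 CPM at 0h, 523 and 534 at 6h, and 1103 and 1134 at 27h. For Hsp90b1 the log2 fold change of 27h over 6h was 1.08 ± 0.11 (SE, edgeR adjusted p = 2.13e-05). Sdf2l1, a partner of the chaperone BiP, had 23.03 and 21.9 CPM at 0h, 10.5 and 10.2 at 6h, and 64.9 and 57.4 at 27h. Sdf2l1 changed by 2.56 ± 0.29 on the log2 scale at 27h against 6h (SE, edgeR adjusted p = 7.6e-05). Derl3, a factor of ER-associated degradation, had 7.40 and 7.74 CPM at 0h, 1.37 and 1.61 at 6h, and 8.50 and 7.67 at 27h. For Derl3 the log2 fold change of 27h over 6h was 2.42 ± 0.36 (SE, edgeR adjusted p = 0.000428). Xbp1, the factor that drives ER expansion in plasma cells, had 133 and 131 CPM at 0h, 94.5 and 106 at 6h, and 190.5 and 179 at 27h. Xbp1 changed by 0.88 ± 0.11 on the log2 scale at 27h against 6h (SE, edgeR adjusted p = 9.88e-05). Hsp90b1, Sdf2l1, Derl3 and Xbp1 were all lowest at 6h. The summed level over the 30 genes of the list was 8814 and 8876 CPM at 0h, 5427 and 5562 at 6h, and 8394 and 8384 at 27h. As a sum, the list at 27h was thus near its 0h level and not above it. The falls were Herpud1 (-0.57) and Dnajb9 (-0.88, as log2 fold changes), both of the pathway that destroys misfolded ER proteins, and the adjusted p of Dnajb9 was 0.105 without 27h replicate 1, 0.0502 without 27h replicate 2, 0.0953 without 6h replicate 2. In the heat shock list 9 of 17 genes were higher and 3 lower. Hspa8, a chaperone of the cytosol, had 758 and 777 CPM at 0h, 217 and 233 at 6h, and 426 and 442 at 27h. For Hspa8 the log2 fold change of 27h over 6h was 0.95 ± 0.12 (SE, edgeR adjusted p = 0.000117). The CCAAT box (letters CCAAT, either strand) lay in 20 of 25 ER-list promoters (80.0%), against 3835 of 9422 (40.7%).

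Genes of the stress branch that runs through ATF4 were called in both directions. Ddit3, the gene of CHOP, had 149 and 149 CPM at 0h, 99.7 and 112 at 6h, and 25.3 and 29.6 at 27h. Ddit3 changed by -1.95 ± 0.14 on the log2 scale at 27h against 6h (SE, edgeR adjusted p = 3.04e-06). Ppp1r15a, the gene of GADD34, had 804 and 857 CPM at 0h, 178 and 235 at 6h, and 43.5 and 49.8 at 27h. For Ppp1r15a the log2 fold change of 27h over 6h was -2.15 ± 0.34 (SE, edgeR adjusted p = 0.000981). Atf4 had 906 and 965 CPM at 0h, 539.5 and 593 at 6h, and 305 and 302 at 27h. Atf4 changed by -0.90 ± 0.14 on the log2 scale at 27h against 6h (SE, edgeR adjusted p = 0.00045). All 3 were lower at each later time. Over the whole list 4 of 16 genes rose and 4 fell, 25.0% each way, against 15.9 and 18.2% of all genes.

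Among growth and division genes most rises lay in the S phase list. The list of Myc and ribosome biogenesis had 8 of 44 genes lower, 18.2% as among all genes, and 1 higher, while DESeq2 called 14 lower and library totals gave 5. Polr1b, a subunit of RNA polymerase I, had 43.98 and 44.4 CPM at 0h, 171 and 169.6 at 6h, and 86.2 and 95.6 at 27h (log2 fold change -0.91, edgeR adjusted p = 0.00698 for 27h against 6h), with adjusted p-values of 0.0655 without 27h replicate 1. The E-box (letters CACGTG) lay in 3 of 38 promoters of this list (7.89%), against 951 of 9422 (10.1%).

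In the S phase list 37 of 47 genes rose and 1 fell. Their median log2 fold change was 1.31, and 16 of the rises passed with any 1 of the 4 libraries left out. Orc1, a subunit of the complex that marks replication origins, had 7.71 and 7.55 CPM at 0h, 2.38 and 2.21 at 6h, and 13.8 and 14.5 at 27h. For Orc1 the log2 fold change of 27h over 6h was 2.62 ± 0.33 (SE, edgeR adjusted p = 0.000117). Cdc6, which loads the replicative helicase there, had 9.69 and 11.7 CPM at 0h, 3.48 and 3.23 at 6h, and 25.6 and 25.1 at 27h. Cdc6 changed by 2.91 ± 0.60 on the log2 scale at 27h against 6h (SE, edgeR adjusted p = 0.00483). E2f2, a factor that drives S phase genes, had 99.5 and 97.7 CPM at 0h, 34.4 and 36.1 at 6h, and 95.1 and 97.6 at 27h. For E2f2 the log2 fold change of 27h over 6h was 1.45 ± 0.23 (SE, edgeR adjusted p = 0.000829). Rpa1, which coats single-stranded DNA, had 209 and 215 CPM at 0h, 117 and 118 at 6h, and 209 and 197 at 27h. Rpa1 changed by 0.79 ± 0.14 on the log2 scale at 27h against 6h (SE, edgeR adjusted p = 0.00136). In these 4 genes the 6h level was the lowest, and E2f2 and Rpa1 at 27h were near their 0h levels. Dut, which removes dUTP, had 68.8 and 69.7 CPM at 27h, against 20.96 and 21.4 at 6h. For Dut the log2 fold change of 27h over 6h was 1.71 ± 0.27 (SE, edgeR adjusted p = 0.000741). The fall, named after its values were seen, was Cdt1, the licensing factor, with 57.9 and 53.99 CPM at 27h, against 95.5 and 94.01 at 6h. Cdt1 changed by -0.76 ± 0.16 on the log2 scale at 27h against 6h (SE, edgeR adjusted p = 0.00345).

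The E2F core motif (letters TTCGCGC or TTGGCGC, either strand) lay within the 250 bases before the start in 9 of 40 S phase genes with a promoter in the table (22.5%), against 651 of 9422 tested genes (6.91%). The windows of 3 such genes that rose, chosen after their values were seen, are printed with the match in capitals, Mcm5 being chosen for its pair of matches.
Orc1, chr4:108579387-108579453, plus strand: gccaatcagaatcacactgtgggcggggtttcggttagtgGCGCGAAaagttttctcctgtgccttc
Fen1, chr19:10203922-10203995, minus strand: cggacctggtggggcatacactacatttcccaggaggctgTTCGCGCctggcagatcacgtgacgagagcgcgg
Mcm5, chr8:75109317-75109403, plus strand: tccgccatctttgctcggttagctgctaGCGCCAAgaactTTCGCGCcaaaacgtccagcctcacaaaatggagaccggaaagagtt
Fen1, the flap endonuclease of lagging-strand synthesis, had 85.9 and 86.9 CPM at 0h, 50.5 and 53.3 at 6h, and 89.2 and 92.7 at 27h. For Fen1 the log2 fold change of 27h over 6h was 0.81 ± 0.14 (SE, edgeR adjusted p = 0.000927). Mcm5, a subunit of the replicative helicase, had 114 and 119 CPM at 0h, 87.3 and 86.5 at 6h, and 222 and 220.3 at 27h, with an adjusted p for 27h against 6h of 0.0514 without 6h replicate 1, 0.0531 without 6h replicate 2.

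The list of G2 and mitosis had a median log2 fold change of 1.00 but only 4 of 30 higher and 1 lower, shares of 13.3 and 3.33%, while DESeq2 called 10 higher. Cdk1, the mitotic kinase, had 15.6 and 16.7 CPM at 0h, 6.13 and 8.75 at 6h, and 30.1 and 29.7 at 27h (log2 fold change 2.00, edgeR adjusted p = 0.0261 for 27h against 6h), with adjusted p-values of 0.0902 without 27h replicate 1, 0.0825 without 27h replicate 2, 0.152 without 6h replicate 1, 0.0887 without 6h replicate 2. Cdc25b, the phosphatase that activates it, had 115 and 113 CPM at 0h, 56.4 and 53.7 at 6h, and 81.2 and 83.3 at 27h. Cdc25b changed by 0.58 ± 0.11 on the log2 scale at 27h against 6h (SE, edgeR adjusted p = 0.00154). Cenpa, the histone of centromeres, was the fall, with 39.4 and 37.4 CPM at 27h, against 65.8 and 66.7 at 6h. For Cenpa the log2 fold change of 27h over 6h was -0.79 ± 0.10 (SE, edgeR adjusted p = 0.000145). Of the genes that gate entry into the cycle, Ccnd3, a cyclin D, had 59.9 and 63.7 CPM at 0h, 36.4 and 37.5 at 6h, and 90.5 and 84.2 at 27h. Ccnd3 changed by 1.24 ± 0.21 on the log2 scale at 27h against 6h (SE, edgeR adjusted p = 0.00112). Cdkn1b, the gene of the inhibitor p27, had 193 and 199.6 CPM at 0h, 223 and 257 at 6h, and 144 and 141 at 27h. For Cdkn1b the log2 fold change of 27h over 6h was -0.75 ± 0.12 (SE, edgeR adjusted p = 0.000639). Cdkn1a, the gene of the inhibitor p21, moved opposite to it, with 19.9 and 21.01 CPM at 0h, 22.97 and 23.01 at 6h, and 65.8 and 78.7 at 27h. Cdkn1a changed by 1.65 ± 0.19 on the log2 scale at 27h against 6h (SE, edgeR adjusted p = 7.47e-05).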

How the data were processed

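Poly-dT primed cDNA libraries (Illumina TruSeq) of 14 samples were measured. The authors deposited 1 table of whole-number counts per gene for each library. Per the submitters' processing notes CASAVA 1.8.2 was used, but the sources used here do not give the aligner, the counter, the genome build, the annotation or the strand setting. The rows that name no gene were left out of library sizes and tests; among the 4 libraries, reads outside any feature were 6.91 to 11.5% and reads with more than 1 alignment 38.8 to 47.1%. Genes with near copies, and overlapping or antisense genes, are therefore uncertain. Of the 39179 IDs, 37693 were paired with a symbol and position in GENCODE M21 (GRCm38), holding 99.6% of the gene counts.

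All 14 libraries, 7 groups of 2, were fitted with edgeR 4.0.16 in R 4.3.3 (filterByExpr, TMM scaling, robust quasi-likelihood fit), with no batch term, and 27h was contrasted with 6h in wild type. P-values were two-sided and adjusted over the 12630 genes tested by Benjamini-Hochberg. Steps were tested on simulated data. Comparisons of 27h or 6h with 0h share libraries with this one, so 0h levels are described only. Chi-square per gene between the 2 libraries of a group was 2.84 to 35.5, so no 2 libraries were merged. Depths of 10497802 to 11454611 counts in the 4 libraries limit the precision of low genes. DESeq2 1.42.0, other scalings, no filter, fewer libraries, a replicate block and leaving out each library were alternatives. Replicate numbers follow the lanes.

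The members and the 59 gene lists (1017 entries, 10 without an ID in the tables) were chosen with earlier results of these data known. Genes named are the 15 largest rises and falls among called genes with a mean log2 CPM of at least 3, up to 5 called members of each list by adjusted p, and all tested members of lists of at most 12; others are marked as named after their values were seen, which also holds for Bach1, Cd93, Csf1r, Dnajb9, Gapdh, Gclm, Herpud1, Mafg, Prdm1, Sod1 and Txnrd1. Promoters are RefSeq windows (GRCm38.p6), matched by symbol for 9422 of the genes tested.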

Additional observations from a re-analysis of the deposited data

How the results depend on the processing

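The total of 4309 changed genes stayed within 1.5 times under DESeq2 (3968), DESeq2 size factors (4310), library totals (4363), no filter on low counts (4569), the replicate block (4412) and without the 4 dbko libraries (6443). It moved to 7662 with the 6 wild-type libraries alone (3832 higher, 3830 lower) and to 7531 with the 4 compared libraries alone (3781 higher, 3750 lower), and without the 4 dbko libraries 3102 genes were higher; the spread in these fits comes from fewer groups. Leaving out 1 of the 4 compared libraries gave 2100 to 2345 changed genes, 887 to 1030 higher, 1153 to 1354 lower and 925 to 1046 changed by at least 2-fold; the lone library is then assumed to vary like the other groups. Under library totals 61.2% of changed genes were higher, against 46.6%. Same-numbered libraries share a lane, and the labels name nothing else that they share. Their deviations from the group means correlated at -0.02 between 27h and 6h, 0.12 between 27h and 0h and 0.15 between 6h and 0h over 8854 genes, so not every pair was over 0.1 and the samples were not treated as paired. With the replicate block 2092 genes were higher and 2320 lower, and the mitosis list had 8 members higher, against 4. Among the genes named in the text or by the naming rule, none that was called in the main fit or in an alternative run reversed direction between them. A change of sign in a gene called in neither was not counted. Leaving out 1 library ended part of the calls. Genes of a few CPM are limited by depth, and 2 libraries a group by their number.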

Other observations

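Some genes outside the lists are given here, chosen after their values were seen and with no test of any group. Smad3 and Smad7, an effector and an inhibitor of TGF-beta signalling, were both lower. Smad3 had 75.7 and 74.04 CPM at 27h, against 315 and 360.1 at 6h. For Smad3 the log2 fold change of 27h over 6h was -2.17 ± 0.16 (SE, edgeR adjusted p = 3.04e-06), and for Smad7 it was -1.43. Rragd, a GTPase that links amino acids at the lysosome to mTORC1, had 5.35 and 6.79 CPM at 27h, against 39.6 and 40.8 at 6h. Rragd changed by -2.72 ± 0.16 on the log2 scale at 27h against 6h (SE, edgeR adjusted p = 1.49e-06). Flcn and Fnip1, which form the complex that acts on that GTPase, had log2 fold changes of -1.66 for Flcn and -1.33 for Fnip1. Satb1, a chromatin organiser of lymphocytes, had 169.6 and 167 CPM at 27h, against 989 and 1050.5 at 6h. For Satb1 the log2 fold change of 27h over 6h was -2.60 ± 0.20 (SE, edgeR adjusted p = 4.87e-06). All of these lay lower in both 27h libraries than in either 6h library, as did 39.0% of all genes tested. Higher at 27h were Cotl1 and Cnn2, both binders of actin, with 291 and 264 CPM at 27h, against 100.5 and 95.1 at 6h for Cotl1. Cotl1 changed by 1.50 ± 0.17 on the log2 scale at 27h against 6h (SE, edgeR adjusted p = 5.03e-05), and Cnn2 by 1.14. Also higher were Acat1, a mitochondrial thiolase, with 105 and 98.1 CPM at 27h, against 29.7 and 31.8 at 6h. For Acat1 the log2 fold change of 27h over 6h was 1.73 ± 0.13 (SE, edgeR adjusted p = 4.87e-06). Mccc2 and Pcca, subunits of carboxylases of amino acid breakdown, had log2 fold changes of 1.48 for Mccc2 and 0.96 for Pcca. Pdcd1, the gene of PD-1, had 10.5 and 6.79 CPM at 27h, against 0.458 and 0.255 at 6h (log2 fold change 4.57, edgeR adjusted p = 0.000407). Each of these calls passed with any 1 of the 4 libraries left out.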
